A study of Mus musculus with 6 samples.

Results

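The genes examined here encode the machinery that commits a cell to S phase: the 3 D cyclins (Ccnd1, Ccnd2 and Ccnd3), their kinases (Cdk4 and Cdk6) and 5 inhibitors of these or related kinases (Cdkn1b, Cdkn1c, Cdkn2a, Cdkn2c and Cdkn2d). The 10 genes were chosen by name, among 17060 genes listed in at least 1 library, and 9 of them were among the 12306 genes with enough reads to be tested. RNA came from WT mouse BM cells depleted of lineage-positive cells and grown with EPO, to which DMSO (vehicle) or NUP-17d, a small molecule made to block pleckstrin-2 (Plek2), was added for 48 hours. Each condition had 3 cultures, which the labels call erythroblasts, and the study's methods name C57BL/6 for the WT mice of its drug screen but give no strain or age for the mice used for RNA. Nothing in the labels says that the cultures came from separate mice, so p-values measure only the spread between these samples, which may be technical.

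D cyclins bind CDK4 or CDK6, and the complexes phosphorylate the retinoblastoma protein, which then releases E2F transcription factors that drive S phase genes. Cdkn2a, Cdkn2c and Cdkn2d encode INK4 inhibitors (p16, p18 and p19), which bind CDK4 and CDK6 directly, and Cdkn2a also encodes ARF, which acts on MDM2. Cdkn1b (p27) and Cdkn1c (p57) belong to the CIP/KIP family, which inhibits cyclin E-CDK2 and also binds cyclin D complexes. In the erythroid lineage cyclin D3 is known for setting the number of divisions before maturation, and p27 accumulates as erythroblasts leave the cell cycle.

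Depth was similar across the libraries: summed expected counts ranged from 20278433 to 20419018 in the DMSO group, and the NUP-17d group spanned 20076409 to 20170197. The hemoglobin share of all counts was 19.1% ± 1.04 in DMSO cultures, compared with 12.2% ± 0.723 after NUP-17d (mean ± SD, n = 3). Because all transcripts in a library share its total, values below are TMM CPM, unless another scale is named. TMM CPM is edgeR's CPM after its trimmed mean of M-values (TMM) correction for library composition. Without that correction the median log2 fold change of all tested genes was 0.28, against 0.014 with it. How much of this shift came from hemoglobin was not tested. All 14 erythroid markers fell, from a summed 12175 to 13162 composition-corrected FPKM with DMSO to 7492 to 8040 with NUP-17d. Of the 10 neutrophil markers 2 rose and 2 fell (3408 to 3572, then 3473 to 3725 summed), and of the 10 macrophage markers 2 rose and 3 fell (288 to 315, then 321 to 363). Megakaryocyte markers rose in 4 and fell in 1 of 7 (291 to 322, then 332 to 363), mast cell and basophil markers rose in 1 and fell in 2 of 6 tested (181 to 196, then 157 to 163), with Mcpt4 at 0 in every library. Lymphocyte markers fell in 2 of 7 tested (28.0 to 31.1, then 25.7 to 26.7), and stem and progenitor markers rose in 2 and fell in 1 of 8 (189 to 197, then 185 to 188). The sums are weighted to the most abundant marker. For macrophages this was Cd68 (mean 160, then 198), and for stem and progenitor cells Ly6a (58.5, then 46.9). The median log2 fold changes of these lists had the opposite sign to their sums, -0.055 for macrophages and 0.071 for stem and progenitor cells. The part of these other cells in the results below was not tested, and in bulk RNA fewer cells of a type and less RNA per cell cannot be told apart.

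Sequence upstream of the annotated start (RefSeq, GRCm38.p6) was found for 7 of the 10 genes. Ccnd1, Ccnd2 and Cdkn1c had no entry. The 200 bases before the start are shown for Cdkn1b, which fell most, and for Ccnd3 and Cdk4, the most abundant D cyclin and kinase, whose change did not pass the test. Cdkn1b lies at chr6:134920201-134920400, Ccnd3 at chr17:47504851-47505050 for the farther upstream of its 2 starts, and Cdk4 at chr10:127063335-127063534, all on the plus strand. Capitals mark matches, on either strand, to 5 motifs picked after the expression values were known.
Cdkn1b: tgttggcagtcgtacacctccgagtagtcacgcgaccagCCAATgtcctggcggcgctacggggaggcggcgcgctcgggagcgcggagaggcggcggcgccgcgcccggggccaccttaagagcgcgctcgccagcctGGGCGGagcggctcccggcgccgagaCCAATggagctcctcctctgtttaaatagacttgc
Ccnd3: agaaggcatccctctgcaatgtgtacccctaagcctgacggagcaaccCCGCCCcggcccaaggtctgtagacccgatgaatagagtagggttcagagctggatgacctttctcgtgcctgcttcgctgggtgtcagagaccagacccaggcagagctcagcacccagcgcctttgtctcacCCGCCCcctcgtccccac
Cdk4: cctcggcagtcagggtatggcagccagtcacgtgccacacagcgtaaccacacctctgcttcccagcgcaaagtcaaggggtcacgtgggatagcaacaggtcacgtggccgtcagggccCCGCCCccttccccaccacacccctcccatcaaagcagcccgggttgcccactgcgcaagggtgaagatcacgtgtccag
The Cdkn1b window held 2 CCAAT boxes (CCAAT), 161 to 157 and 35 to 31 bases before the start, and 1 GC box (GGGCGG), 61 to 56 bases before it. The Ccnd3 window shown held 2 GC boxes and the Cdk4 window 1. The window of the other Ccnd3 start held 1 GC box and 1 CCAAT box, and which start these cells used was not tested. Over all 32851 windows of this length, 31.0% held a GC box and 29.3% a CCAAT box. The FoxO letters GTAAACA (2.51% of windows) and the STAT5 letters TTCNNNGAA (5.49%) were in none of the members' windows, and the E2F letters TTTNNCGC (3.53%) were in those of Cdk6 and of 1 of the 2 Cdkn2a starts. The letters are a description of the window and locate no binding site.

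The first question was which of these genes differed between NUP-17d and DMSO. Of the 9 tested, 5 passed edgeR's quasi-likelihood test at a Benjamini-Hochberg adjusted p under 0.05: Cdkn1b, Ccnd2, Cdkn2d and Cdkn2c fell and Cdk6 rose. Over all genes 35.3% passed, 16.4% higher and 18.9% lower. The same 5 genes had no overlap between the groups, which held for 46.0% of all tested genes. The median log2 fold change of the 9 was -0.13, against 0.014 over all tested genes. With library totals alone 3 of the 9 were higher (Ccnd3, Cdk4 and Cdk6) and 1 was lower (Cdkn1b), where 68.7% of all genes were higher and 5.34% lower.

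**Figure D1:**
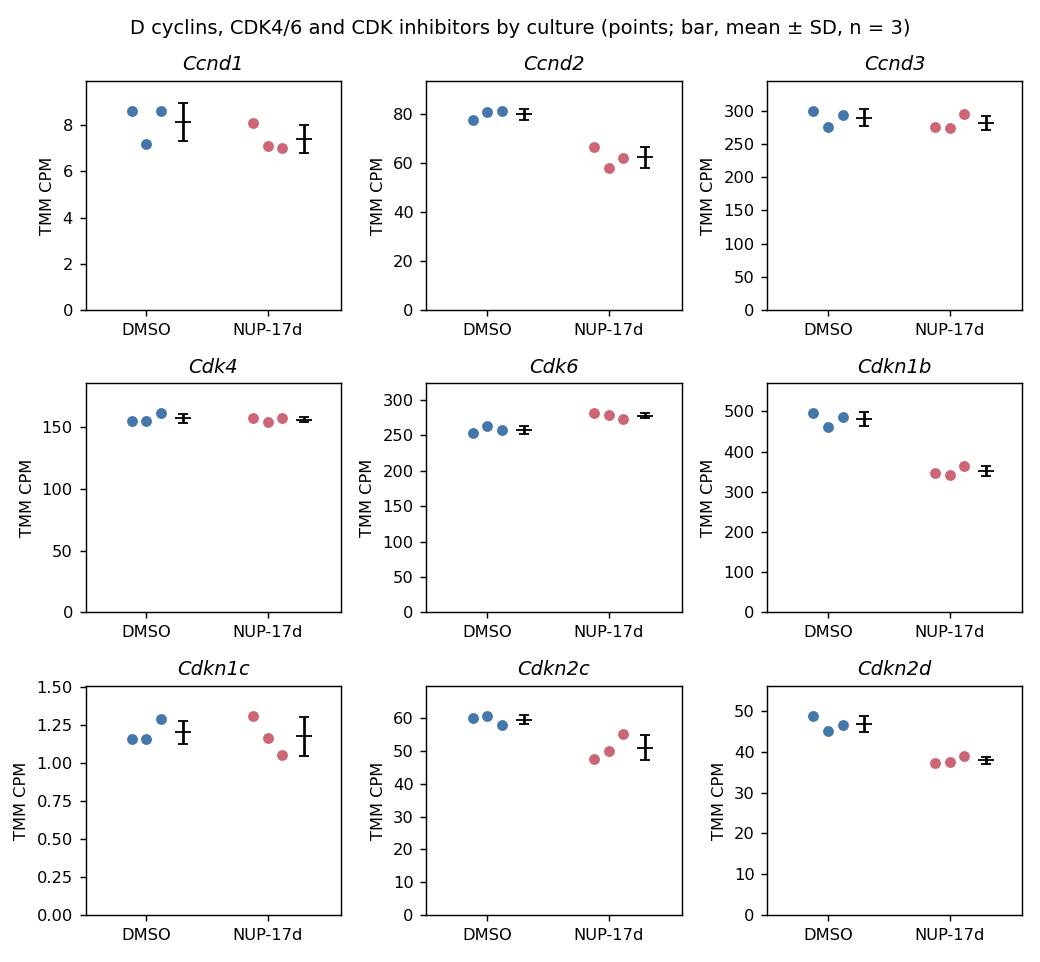
TMM CPM of the 9 tested genes in each culture (y axis, linear from 0), with DMSO in blue and NUP-17d in red and the mean ± SD of 3 cultures as a black bar. Cdkn1b, Ccnd2, Cdkn2c and Cdkn2d sit lower and Cdk6 higher with NUP-17d without overlap, and with library totals alone Cdkn2c turns to a log2 fold change of 0.041 and Cdkn1b stays lower.

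Among the inhibitors, Cdkn1b, which encodes p27, moved most. It measured 495, 462 and 487 in the DMSO cultures and 347, 342 and 365 in the NUP-17d cultures. The lowest DMSO culture lay well above the highest NUP-17d culture. The log2 fold change was -0.45 (SE 0.037, 95% interval -0.53 to -0.38, edgeR adjusted p = 1.26e-10), and the NUP-17d level was 0.730 times the DMSO level (95% interval 0.693 to 0.769). Of the 4 genes that fell, Cdkn1b alone kept its call under every scaling tried, and 5.03% of tested genes had a lower fold change. These values rest on 7620 to 9056 expected reads per library, all whole numbers.

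Cdkn2d, the gene of p19, measured 48.9, 45.1 and 46.6 with DMSO and 37.2, 37.5 and 39.0 with NUP-17d. All 3 NUP-17d cultures were below all 3 DMSO cultures. Its log2 fold change was -0.31 (SE 0.047, 95% interval -0.40 to -0.21, edgeR adjusted p = 9.26e-06). On library totals alone it was -0.038 and did not pass.

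Cdkn2c, the gene of p18, measured 60.1, 60.7 and 58.0 with DMSO and 47.6, 50.1 and 55.2 with NUP-17d. The groups did not overlap, although the NUP-17d cultures spread more (SD 3.88) than the DMSO cultures (SD 1.41). The log2 fold change was -0.23 (SE 0.049, 95% interval -0.33 to -0.13, edgeR adjusted p = 0.000597), and with library totals alone its sign turned, to 0.041. Both scalings differ by a shift common to all genes, so relative to the median of all genes Cdkn2c was at -0.24, Cdkn2d at -0.32 and Cdkn1b at -0.47 under either by construction, which is no check of their fall.

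Cdkn1c had few reads, and Cdkn2a was at the edge of detection. Cdkn1c, the gene of p57, had 21 to 29 reads per library, with 1.16, 1.16 and 1.29 CPM with DMSO and 1.31, 1.17 and 1.05 with NUP-17d. The groups overlapped, and the 95% interval of its log2 fold change ran from -0.52 to 0.46 (edgeR adjusted p = 0.932). That is 0.696 to 1.38 times the DMSO level, and a change within this range in either direction could not be told from none. Cdkn2a, the gene of p16 and ARF, had 1 read in 1 NUP-17d culture and none in the other 5 libraries. A count of 0 allows up to 3 reads, which is 0.136 to 0.166 TMM CPM in those 5 libraries, for counting error only.

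Among the D cyclins, Ccnd2 fell, and neither Ccnd3 nor Ccnd1 passed the test. Ccnd2 measured 77.3, 80.9 and 81.2 with DMSO and 66.6, 58.1 and 62.1 with NUP-17d. Every NUP-17d culture was below every DMSO culture. The log2 fold change was -0.36 (SE 0.046, 95% interval -0.45 to -0.27, edgeR adjusted p = 4.76e-07). On library totals alone it was -0.093 and did not pass (edgeR adjusted p = 0.104).

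Ccnd3, the most abundant D cyclin, measured 299.7, 275 and 293 with DMSO and 276, 275 and 294 with NUP-17d. The groups overlapped, and its log2 fold change of -0.040 had a 95% interval from -0.12 to 0.039 (edgeR adjusted p = 0.448). Ccnd3 was at 0.23 and passed with library totals alone, below the median of 0.28 over all genes. Ccnd1, at 8.62, 7.17 and 8.60 with DMSO and 8.09, 7.08 and 7.01 with NUP-17d, overlapped too (log2 fold change -0.13, 95% interval -0.35 to 0.083, edgeR adjusted p = 0.345). Expected counts of Ccnd1, Ccnd3 and Cdk6 were not whole in any of the 6 libraries, as happens where reads are shared out between genes. Those of Cdk4 were whole in every library. In GENCODE vM21 Ccnd1, Ccnd3 and Cdk4 overlap Oraov1 (listed there as LTO1), Bysl and Tspan31, and the counting's use of strand was not given in the sources used here. None of those 3 neighbours passed the test. Bysl (log2 fold change -0.11, edgeR adjusted p = 0.0693) and Tspan31 (0.10, edgeR adjusted p = 0.0857) had no overlap between the groups, and Oraov1 overlapped. On library totals alone Bysl and Tspan31 passed and Oraov1 did not.

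Of the kinases, Cdk6 rose and Cdk4 did not pass the test, and on library totals alone they were at 0.38 and 0.26 and both passed. Cdk4 measured 155, 155 and 161 with DMSO and 157, 154 and 157 with NUP-17d. The cultures overlapped throughout, and the 95% interval of the log2 fold change, -0.081 to 0.063, lay around 0 (edgeR adjusted p = 0.862). Cdk6 measured 252, 263 and 257 with DMSO and 281, 279 and 273 with NUP-17d. Each NUP-17d culture was above each DMSO culture. The log2 fold change was 0.11 (SE 0.034, 95% interval 0.038 to 0.18, edgeR adjusted p = 0.0141), and without the first DMSO culture it was 0.093 with an edgeR adjusted p of 0.0550.

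**Figure D2:**
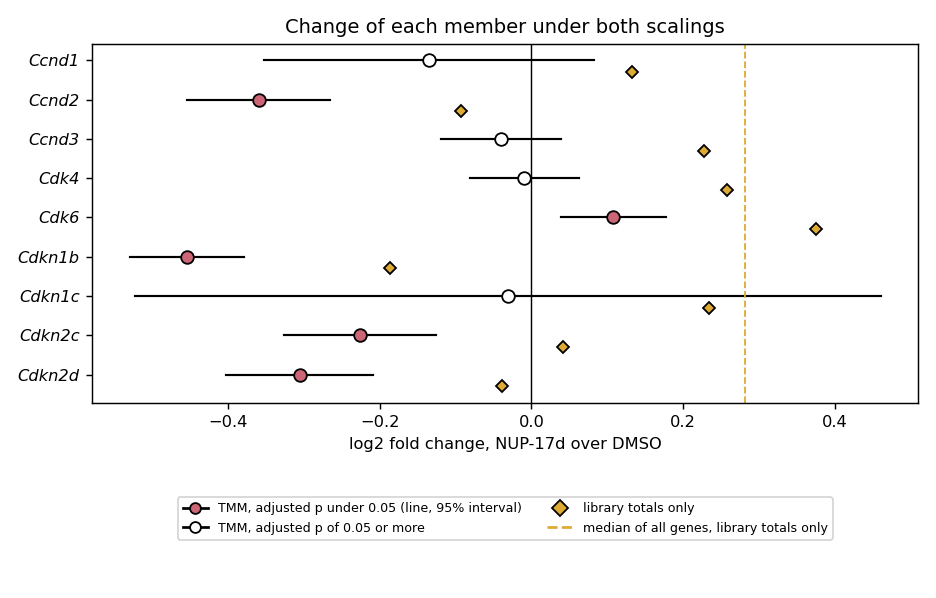
Log2 fold change of NUP-17d over DMSO for each tested member (x axis), with TMM as circles and 95% intervals as lines, filled where the adjusted p was under 0.05, and with library totals alone as diamonds. With library totals alone Ccnd1, Ccnd3, Cdk4, Cdkn1c and Cdkn2c turn positive, and the dashed line marks the median of all genes on that scale, 0.28.

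To compare levels between genes, FPKM values divided by the composition factor were used, since longer transcripts give more reads. With DMSO the order was Cdkn1b (198.0), Ccnd3 (144), Cdk4 (111), Cdkn2d (37.0), Cdkn2c (32.0), Cdk6 (21.8), Ccnd2 (13.6), Ccnd1 (2.11), Cdkn1c (0.625) and Cdkn2a (0), in mean composition-corrected FPKM. No neighbours in that order overlapped among their 3 cultures. With NUP-17d the order was the same, but the ranges of Cdkn1b (141 to 151) and Ccnd3 (137 to 147) overlapped, as did those of Cdkn2d (29.5 to 30.8) and Cdkn2c (25.2 to 29.6). Per length, p27 mRNA thus stood 1.37 times above cyclin D3 mRNA with DMSO and 1.03 times with NUP-17d.

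**Figure D3:**
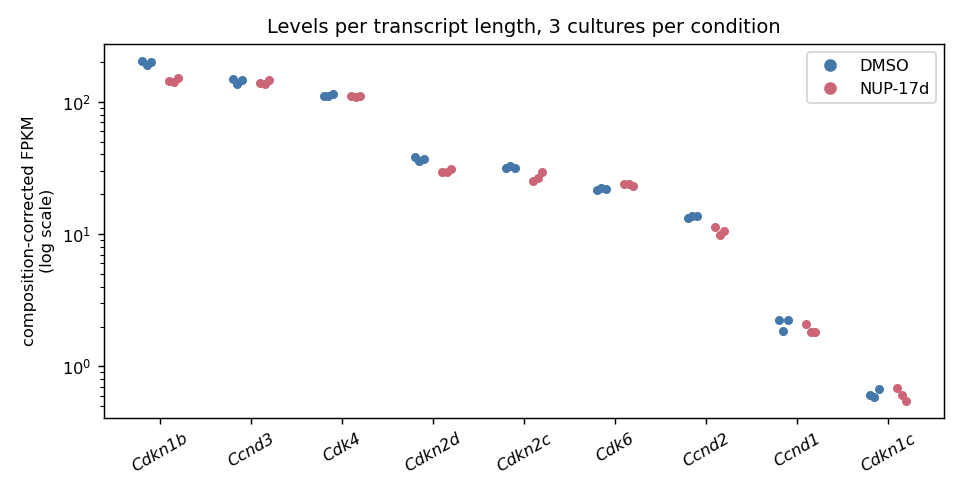
Composition-corrected FPKM (log axis) of the members with reads in every library, 3 cultures per condition, DMSO in blue and NUP-17d in red. The genes run from Cdkn1b, at 190 to 204 with DMSO, down to Cdkn1c, below 1 in every culture.

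Ccnd3 supplied 90.2% ± 0.446 of the summed D cyclin FPKM with DMSO and 91.8% ± 0.619 with NUP-17d (mean ± SD, n = 3). Ccnd2 supplied 8.50% ± 0.512 and 6.93% ± 0.499. Cdk4 supplied 83.6% ± 0.396 of the summed kinase FPKM with DMSO and 82.4% ± 0.302 with NUP-17d. Both pools were thus dominated by 1 gene in either condition. The summed level of the 5 inhibitors was 268 ± 7.65 composition-corrected FPKM with DMSO and 203 ± 7.69 with NUP-17d, of which Cdkn1b was 74.0% and 71.5%.

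Ratios within a library do not depend on the scaling between libraries. Comparison of 5 ratios was by a 2-sided exact permutation test, for which 3 against 3 cultures cannot give a p below 0.1. The ratio of Cdkn1b and Cdkn1c to the D cyclins, per length, was 1.24, 1.25 and 1.24 with DMSO and 0.952, 0.951 and 0.949 with NUP-17d. Per length it was thus above 1 in every DMSO culture and below 1 in every NUP-17d culture (0.765 times, exact p = 0.1, adjusted 0.125). From expected counts it fell as well, but not below 1 in every NUP-17d culture. The crossing of 1 thus depends on the scaling by length. The ratio of the INK4 genes to Cdk4 and Cdk6 was 0.533, 0.517 and 0.506 with DMSO and 0.404, 0.423 and 0.449 with NUP-17d (0.820 times, exact p = 0.1, adjusted 0.125). These groups did not overlap either. Ccnd2 to Ccnd3 went from 0.0943 ± 0.00614 to 0.0755 ± 0.00596 and Cdk6 to Cdk4 from 0.197 ± 0.00568 to 0.213 ± 0.00444, both without overlap and with an exact p of 0.1 (adjusted 0.125). Cdkn2d to Cdkn2c overlapped (1.16 ± 0.0724 against 1.11 ± 0.0636, exact p = 0.5, adjusted 0.5). The ratios use the values of the same members, so they are no separate support for the calls above. How often ratios of other gene pairs lack overlap was not computed. Of single tested genes 46.0% did not overlap.

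**Figure D4:**
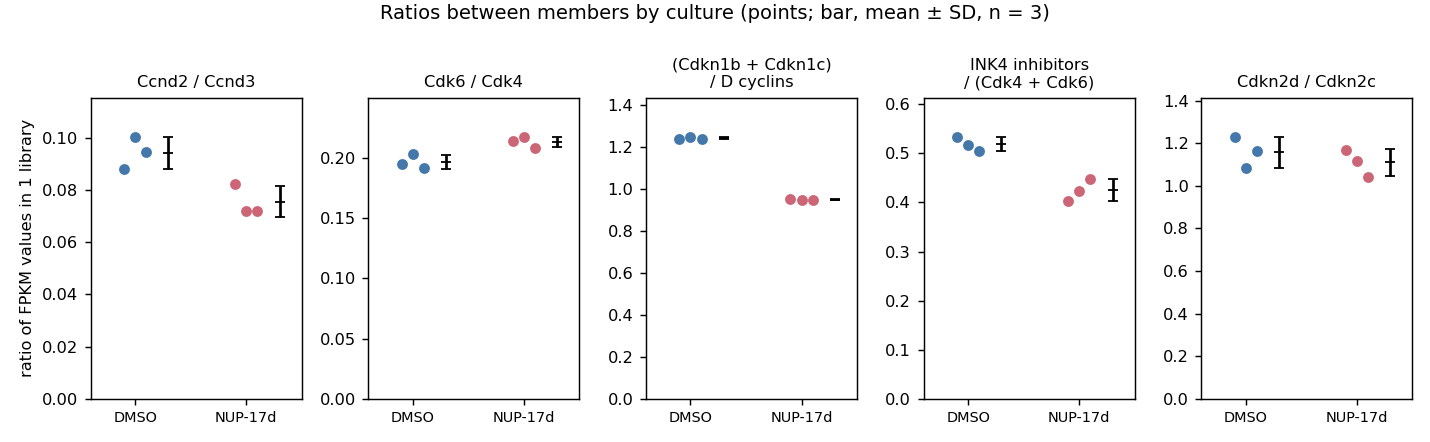
Ratio of FPKM values within each library (y axes, linear from 0) for 5 pairs of genes or sums, with points for cultures and a black bar for the mean ± SD of 3. The ratio of Cdkn1b and Cdkn1c to the D cyclins spreads least, at 1.24 to 1.25 with DMSO and 0.949 to 0.952 with NUP-17d, and Cdkn2d to Cdkn2c is the only pair that overlaps.

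The genes around these members were read from 6 lists, with the count that passed the same test beside the 35.3% over all genes. On library totals alone 68.7% of all genes were higher and 5.34% lower, with a median of 0.28, against which the list values on that scale are to be read. Of 6 tested cyclins, kinases and inhibitors of the G1 and S phases outside the member list, 4 fell and none rose (median log2 fold change -0.24), whereas 2 were higher and 2 lower on library totals alone (median 0.023). Those that fell were Ccne1 and Ccne2, the E cyclins that activate CDK2 (-0.55 and -0.44), Cdc25a, a phosphatase that activates CDKs (-0.28), and Ccna2 (-0.20). Ccne1 measured 44.2, 42.0 and 40.9 with DMSO and 29.5, 28.0 and 28.9 with NUP-17d. Cdkn1a, the gene of p21, was at -0.041 and did not pass (edgeR adjusted p = 0.401).

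Of 13 pocket protein and E2F genes, 5 fell and none rose (median -0.12), whereas 8 were higher and 3 lower on library totals alone (median 0.14). Tfdp2, a dimerization partner of E2F, was at -0.77, E2f2 at -0.74 and E2f4 at -0.38, each lower with library totals alone as well. E2f2 measured 1033, 934 and 964 with DMSO and 602, 558 and 590.2 with NUP-17d. Rb1, the gene of the retinoblastoma protein, was at 0.039 (edgeR adjusted p = 0.448). Of 21 S phase genes driven by E2F, a list that shares Ccne1, Ccne2, Ccna2 and Cdc25a with the first list and Cdk1 with the last, 19 fell and none rose (median -0.20). Rrm2, a subunit of ribonucleotide reductase, was at -0.57. The median of this list was 0.063 on library totals alone, 8 genes were higher and 3 lower.

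Of 17 genes for the turnover of D cyclins and p27, 10 fell and 1 rose (median -0.13). On library totals alone 9 were higher and 3 lower, with a median of 0.14, below the 0.28 over all genes. Rnf123 and Ubac1, which encode the 2 subunits of the KPC ubiquitin ligase for p27, were at -0.51 and -0.53, and Cul4a, a cullin scaffold, at -0.36. Skp2, which recognizes p27 for the SCF ligase, was at -0.19 (edgeR adjusted p = 0.0203), and with library totals alone at 0.074. The 1 gene that rose, Usp2, a deubiquitinase of cyclin D1, was at 0.55 from a low level (3.14 CPM with DMSO). Skp2 and Usp2 were picked after their values were seen, as were Ccna2, Cdkn1a, Rb1, Cdk5 and Cdk10.

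Of 7 genes for the CDK-activating kinase and kinase chaperones, Hsp90aa1 fell (-0.30), Cdk20 rose (0.44, at 3.89 CPM with DMSO) and 5 did not pass, with a median of -0.074, whereas 6 were higher and none lower on library totals alone (median 0.19). Of 27 other cyclins and cyclin-dependent kinases, 13 fell and 3 rose (median -0.15). On library totals alone 17 were higher and 2 lower, with a median of 0.12, below the 0.28 over all genes. Cdk12, a kinase of RNA polymerase II, was at -0.73 and Cdk8, a kinase of the Mediator complex, at -0.37. The 3 that rose were Cdk18 (0.88, from a low level of 3.51 CPM with DMSO), Cdk10 (0.29) and Cdk5 (0.21, edgeR adjusted p = 0.0465).

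**Figure D5:**
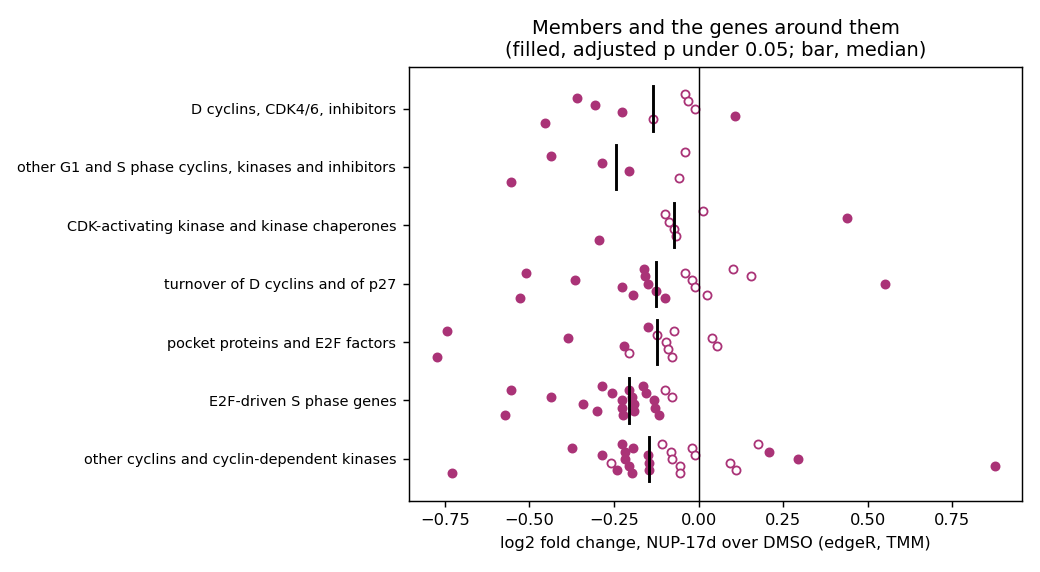
Log2 fold change of NUP-17d over DMSO (x axis, TMM) for the members and 6 lists around them, 1 point per gene, filled where the adjusted p was under 0.05, with a black bar at the median. Medians run from -0.24 to -0.074. With library totals alone those of all 6 lists and of the members are above 0 but below the 0.28 over all genes.

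The genes whose values followed Cdkn1b most closely over the 6 libraries were Hbp1, Ms4a3 and Otub2, with Euclidean distances of 0.0314, 0.0506 and 0.0529 between centred log2 CPM values, among 9755 genes compared. Their log2 fold changes were -0.47, -0.47 and -0.47, near that of Cdkn1b by the way they were chosen. Hbp1 measured 318 with DMSO and 229 with NUP-17d on average.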

How the data were processed

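Each culture has 1 deposited table, in which the expected count is the authors' estimate of reads per gene, not normalized, and the deposited FPKM is that count scaled by transcript length and library total, with no composition correction. A gene not listed was taken as 0. The submitters' processing notes name mm10. The aligner and counting program are not given in the sources used here. The labels describe DNBseq single-end sequencing and the study's methods an Illumina stranded kit, so strandedness is not settled.

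Expected counts were rounded, filtered by filterByExpr, scaled by TMM and tested with the quasi-likelihood test of edgeR 4.0.16 (R 4.3.3), treatment only, with Benjamini-Hochberg adjustment over all 12306 genes and a threshold of 0.05. Ratios were tested with scipy 1.17.1. The fit was also run on simulated data with no composition shift built in between the groups, so that run does not test the scaling. Alternatives were DESeq2 1.42.0, library totals only, upper quartile factors, no filter, hemoglobin genes removed, limma 3.58.1 on log2 FPKM with a pseudocount of 1 or 0.1 (mean FPKM 1 or more), a block for the number in the culture's label, and fits without each culture in turn.

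The members and lists were chosen with earlier results of these data known. Named genes are all members, up to 3 called genes of lowest p per list, and the 3 genes closest to the called member of lowest p among those with a mean count of at least 100. Others are said to have been picked after their values were seen. Depth was about equal in all libraries, and genes with few reads, such as Cdkn1c, have wide intervals. Only relative abundances can be read, since no spike-in was used here.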

Additional observations from a re-analysis of the deposited data

How the results depend on the processing

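Scaling was the choice that mattered. With library totals alone, limma on log2(FPKM + 1) and limma on log2(FPKM + 0.1), none of which corrects for composition, 9115, 8494 and 8480 genes were called, against 4346 with TMM, 3153 with DESeq2 and 4442 with upper quartile factors. Higher genes made up 92.8% of the calls with library totals alone and 46.5% with TMM, 54.9% with upper quartile factors. In the same order of the 3 uncorrected settings, the log2 fold change was 0.13, 0.089 and 0.13 for Ccnd1, -0.093, -0.083 and -0.089 for Ccnd2, 0.23, 0.23 and 0.23 for Ccnd3, 0.26, 0.26 and 0.26 for Cdk4, 0.041, 0.026 and 0.026 for Cdkn2c, and -0.038, -0.033 and -0.034 for Cdkn2d. Cdkn1c was at 0.23 with library totals alone and was too low for the FPKM filter. Cdk4 was at 0.015 with upper quartile factors. Calls in the lists numbered 6, 6 and 6 for the CDK-activating kinase and chaperones (2 with TMM, 1 with DESeq2), 11, 11 and 11 for pocket proteins and E2F factors (5 with TMM), and 11, 12 and 12 for E2F-driven S phase genes (19 with TMM). The log2 change of the ratio of Cdkn1b and Cdkn1c to the D cyclins was -0.35 from expected counts and -0.39 per length.

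Leaving out each culture, Cdk4 ranged from -0.019 to 0.0082 and Cdkn1c from -0.12 to 0.040, each turning sign in 2 of the 6 fits. Cdk6 ranged from 0.093 to 0.12 and lost its call without DMSO culture 1, so 4 to 5 members were called. Calls among the CDK-activating kinase and chaperones ranged from 1 to 2, with 1 without DMSO culture 1 or NUP-17d culture 2. The other 4 called members kept their calls in every such fit, Cdkn1b between -0.48 and -0.43.

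Deviations from the group mean correlated at r -0.0092 to 0.099 between same-numbered cultures (3 pairs, mean 0.062). Between different-numbered cultures r was -0.11 to 0.023 (6 pairs, mean -0.032). So few pairs cannot decide whether the culture numbers pair the samples, and the main fit did not use them. A replicate block on these numbers called 4543 genes and the same 5 members.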
